A study of Mus musculus with 15 samples.

Results

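Lungs of mice that had inhaled rod-like carbon nanotubes (rCNT) were compared with lungs of mice that had aspirated phosphate-buffered saline (PBS), the vehicle used for aspirated nanotubes. The comparison used 7 of the 15 samples of the series, 3 inhaled rCNT samples and all 4 PBS samples, chosen by their sample titles. All mice were female C57BL/6 animals 7 to 8 weeks old. The inhaled group breathed an aerosol of 6.2 to 8.2 mg/m3 for 4 hours a day on 4 days, and the PBS group received 50 µl of PBS in the throat, also over 4 days. Lung tissue of both groups was taken 24 hours after the last exposure, so the groups differed in the particle, in the route and in the fluid instilled. The other samples were 4 untreated lungs, which the study used as controls for inhalation, and 4 lungs with 10 µg of rCNT aspirated in the same volume of PBS. The title of untreated replicate 1 speaks of the vehicle, against every other label of that sample, and it was not counted with the PBS group.

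RNA was measured on 2-colour Agilent arrays, and each sample is 1 dye channel of an array. The PBS samples lay on 1 slide, scanned once, together with the aspirated rCNT samples. Inhaled replicate 1 lay on slide 2 and inhaled replicates 2 and 3 on slide 3, together with the untreated samples, and each of these slides had a scan of its own. No slide held both an inhaled and a PBS sample, so exposure, route, slide and scan cannot be told apart in any difference given here. The names of the scans of the inhalation arrays speak of pools and those of the PBS arrays do not, and whether 1 mouse or several gave a sample is not stated. The p-values thus rest on differences between these samples that may be technical in part or in whole. A level below is a log2 intensity after normalisation, a difference is inhaled minus PBS on that scale after removal of a dye effect, and a gene is said to have risen or fallen where limma's moderated test gave an adjusted p below 0.05.

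In the airways, mucus is made by goblet cells and moved by multiciliated cells, which grow many motile cilia from centrioles copied in bulk. Interleukin-4 and interleukin-13, acting through the transcription factor STAT6, are known to turn airway secretory cells into goblet cells and to raise resistin-like and chitinase-like proteins and the chemokines of type 2 inflammation. Particles reaching the alveoli are taken up by alveolar macrophages, and the lung answers many inhaled irritants with acute-phase proteins and chemokines that call in leukocytes.

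The lung markers were bright in both groups. Scgb1a1, the secretory protein of club cells, read 18.12, 18.14 and 18.18 in inhaled replicates 1 to 3 and 18.16, 18.16, 18.23 and 18.13 in PBS replicates 1 to 4, a difference of 0.01 (SE 0.17, adjusted p = 0.965). Sftpc, the surfactant protein of alveolar type 2 cells, read 17.33, 18.58 and 17.62 in inhaled replicates 1 to 3 and 18.0, 18.58, 18.09 and 18.58 in PBS replicates 1 to 4, where 18.58 is the highest value that quantile normalisation gives to a probe, and its difference of -0.33 did not pass (adjusted p = 0.0562). It passed, lower in inhaled samples, in 7 alternative analyses: with median centring (-0.47, adjusted p = 0.0171), with only the inhaled and PBS samples fitted (0.0351), with slide 2 alone (0.0261), with array weights (0.0240), and without inhaled replicate 2 (0.0236), PBS replicate 2 (0.0472) or PBS replicate 4 (0.0497). Ager, a membrane receptor of alveolar type 1 cells, was 14.09, 14.07 and 14.08 against 14.39, 14.25, 14.51 and 14.29 and fell by 0.30 (adjusted p = 0.00269). Cldn5, the tight-junction protein of endothelium, fell by 0.36 (SE 0.12, adjusted p = 0.0226) with overlapping groups, and that call was lost in several alternative analyses, among them those without PBS replicate 1 (adjusted p = 0.0508), without PBS replicate 4 (0.0529), without inhaled replicate 1 (0.144) and without inhaled replicate 3 (0.0518).

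Of 25250 genes or unnamed transcripts tested, 13937 (55.2%) were called, of which 6949 (27.5% of all) rose and 6988 (27.7% of all) fell. In 12862 (50.9%) the inhaled and PBS samples did not overlap. Most of these differences were small, since 5% of genes lay below -0.63 and 5% above 0.76, and 641 genes (2.54%) were at least 2-fold higher and 297 (1.18%) at least 2-fold lower. These counts turned to 207 and 1376 with median centring and were 1541 and 1202 with the processed signal. The balance of rises and falls rests on the normalisation: with each array centred on its median in place of quantile normalisation, the median difference over all genes moved from -0.0060 to -0.29, and 3499 genes rose while 13111 fell, so that rises made up 21.1% of the genes called. Brightness differed between the slides: the median spot of the Cy3 channels read 101 to 105 units in PBS samples and 53.5 to 62 in inhaled samples, and that of the Cy5 channels 131 to 132 against 118. Spike-in controls, RNAs added to each sample in a fixed amount, were taken relative to the upper quartile of the other spots of a channel. They differed by -1.25 to 0.0024 between inhaled and PBS samples. Their mean was 3.635, 3.447 and -0.979 in inhaled replicates 1 to 3 and 2.306 to 3.125 in PBS samples. Inhaled replicates 1 and 2 thus stood above every PBS sample and replicate 3 below. In the Cy3 channels of slide 3, inhaled replicate 3 among them, the spike-ins stood far below those of the other channels. The part of slide and brightness in the results was not tested. Correlations of log2 levels over genes were 0.994 to 0.997 among inhaled samples, 0.995 to 0.998 among PBS samples, 0.977 to 0.984 between both groups and 0.967 to 0.976 between inhaled and untreated samples.

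**Figure D1:**
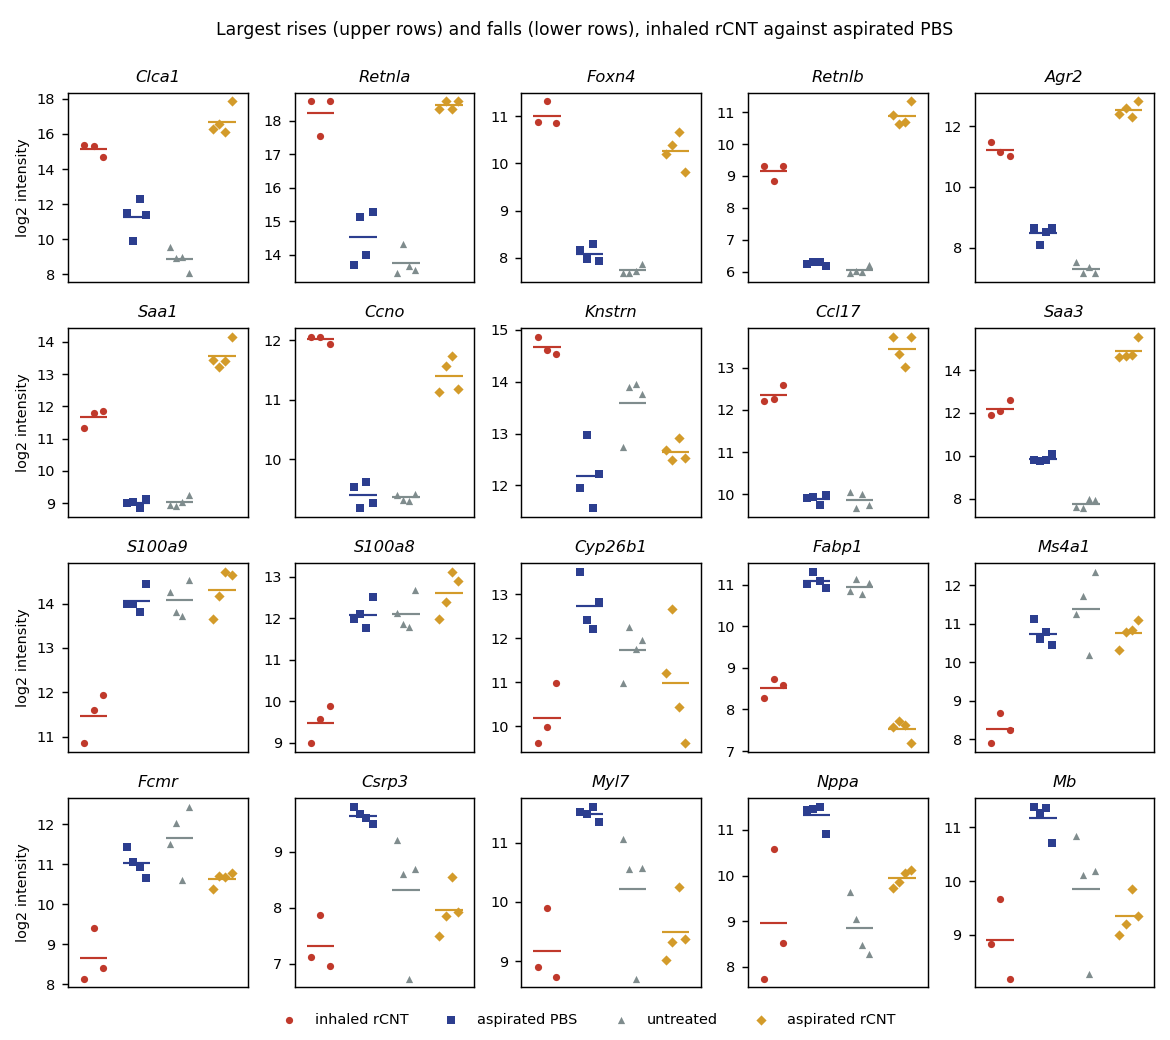
Log2 intensity in each sample of the 10 genes with the largest rises and the 10 with the largest falls between inhaled rCNT and aspirated PBS samples, among genes called without overlap and without a Gm, LOC or Rik symbol. Each point is a sample, each line a group mean, and the axes differ between panels. Clca1 differed by 3.77 on the log2 scale, Retnla had 2 inhaled samples at the top of the scale, and Nppa and Mb show inhaled samples spread over a wide range.

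Changes were ranked among genes called without overlap whose symbol was not of the Gm, LOC or Rik kind. The largest rises there were in Clca1, a secreted protein that goblet cells release with mucus, and Retnla, a resistin-like protein of alternatively activated macrophages and airway epithelium. Clca1 read 15.38, 15.34 and 14.67 in inhaled replicates 1 to 3 and 11.49, 9.91, 12.31 and 11.36 in PBS replicates 1 to 4. All inhaled samples stood above all PBS samples, which themselves differed widely, and the difference was 3.77 (SE 0.45, adjusted p = 5.25e-06), or 13.7-fold. Retnla read 18.58, 17.56 and 18.58 in inhaled replicates 1 to 3 and 13.69, 15.12, 13.98 and 15.27 in PBS replicates 1 to 4, with inhaled replicates 1 and 3 at the highest value normalisation can give. Its difference was 3.77 (SE 0.33, adjusted p = 2.76e-07), read from these capped values, so that its fold and its rank among the rises are not exact. Retnlb, the goblet cell member of the same family, was well above background in no PBS sample and read 9.32, 8.85 and 9.31 in the inhaled samples. Its fitted difference was 7.39-fold (adjusted p = 2.15e-09) and the bound, taken without the dye term, 7.53-fold, so its fold is not exact.

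Goblet cell genes rose together. On the list of goblet cell and mucus genes, 17 of its 22 measured members rose, 1 fell and 4 did not pass, against 27.5% of all genes rising, and the median difference of the list was 0.91. With median centring the list median was 0.52. Its medians in the inhaled samples, taken relative to the mean of the PBS samples, were 0.95, 0.87 and 0.83, and those of the PBS samples ran from -0.078 to 0.072. In lung tissue as a whole, more cells of a type and more RNA per cell cannot be told apart, here and in every list below. Counts of every list are to be read beside the 27.5% rising and 27.7% falling over all genes.

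The gel-forming mucins and the proteins that fold and package them were on that side. Muc5ac, the mucin of goblet cell metaplasia, read 9.64, 9.41 and 9.21 in inhaled replicates 1 to 3 and 7.47, 7.34, 7.76 and 7.47 in PBS replicates 1 to 4 and rose by 1.85 (SE 0.25, adjusted p = 1.54e-05). Muc5b, the mucin that mouse airways make at rest, read 15.48, 15.41 and 15.51 in inhaled replicates 1 to 3 and 13.71, 13.54, 14.08 and 13.94 in PBS replicates 1 to 4 and rose by 1.60 (SE 0.13, adjusted p = 1.03e-07). The groups did not overlap in either gene. Agr2, a disulphide isomerase that mucin folding needs, read 11.47, 11.13 and 11.02 in inhaled replicates 1 to 3 and 8.64, 8.08, 8.53 and 8.63 in PBS replicates 1 to 4 and rose 6.51-fold (adjusted p = 3.05e-09). Slc26a4, an anion exchanger of inflamed airway epithelium, rose by 2.21, Fcgbp, a protein of the mucus gel, by 1.45, and the membrane mucin Muc4 by 1.23. Spdef, the transcription factor that drives goblet cell differentiation, rose by 1.09 (adjusted p = 3.99e-06). Creb3l1, another transcription factor on the list, rose by 0.71 (adjusted p = 0.000278), and Foxa3 stood at -0.04 and did not pass. Muc1, a membrane mucin of many epithelia, was the 1 member that fell, by 0.41 (adjusted p = 0.000164). Among club cell genes 5 of 13 rose and 2 fell, and Cyp2f2, the monooxygenase that defines these cells together with Scgb1a1, was 16.83, 16.59 and 16.90 against 17.43, 17.36, 17.81 and 17.29 and fell by 0.71 (adjusted p = 0.00398).

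Several regulators of multiciliated cells were higher in the inhaled samples. Foxn4, a forkhead factor of the multiciliation programme, read 10.87, 11.31 and 10.85 in inhaled replicates 1 to 3 and 8.16, 7.97, 8.30 and 7.93 in PBS replicates 1 to 4, with all inhaled samples far above all PBS samples. It rose by 2.94 (SE 0.16, adjusted p = 5.87e-09), or 7.65-fold. Ccno, a cyclin-like protein needed to copy centrioles in these cells, read 12.06, 12.05 and 11.93 in inhaled replicates 1 to 3 and 9.53, 9.17, 9.62 and 9.26 in PBS replicates 1 to 4 and rose by 2.60 (SE 0.13, adjusted p = 3.44e-09). Foxj1, which switches on the genes of motile cilia, read 12.78, 12.45 and 12.71 in inhaled replicates 1 to 3 and 11.22, 11.16, 11.21 and 10.98 in PBS replicates 1 to 4 and rose by 1.48 (SE 0.078, adjusted p = 4.91e-09). Mcidas, which acts above both in the same programme, rose by 0.85 (adjusted p = 8.44e-07). Rfx3, a transcription factor of cilium genes, did not pass (0.14, adjusted p = 0.397).

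Genes of the cilium itself rose as well. On the list of ciliated cell genes, 26 of its 30 measured members rose, 1 fell and 3 did not pass, with a median of 0.70. With median centring 13 members rose and the median was 0.23. Ccdc39, a ruler protein of the axoneme, rose by 1.35, the radial spoke protein Rsph1 by 1.24 and Tekt1, a filament protein of the axoneme, by 1.11. The dynein heavy chains Dnah5 and Dnah11, which power the beat, rose by 0.44 and 0.45. Tppp3, a tubulin-binding protein of mature ciliated cells, fell by 0.47 (adjusted p = 0.000967). Hydin and Sntn did not pass, at 0.27 and 0.032. The list median was 0.86, 0.44 and 0.74 in the inhaled samples, lowest in replicate 2, and -0.14 to 0.10 in the PBS samples.

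**Figure D2:**
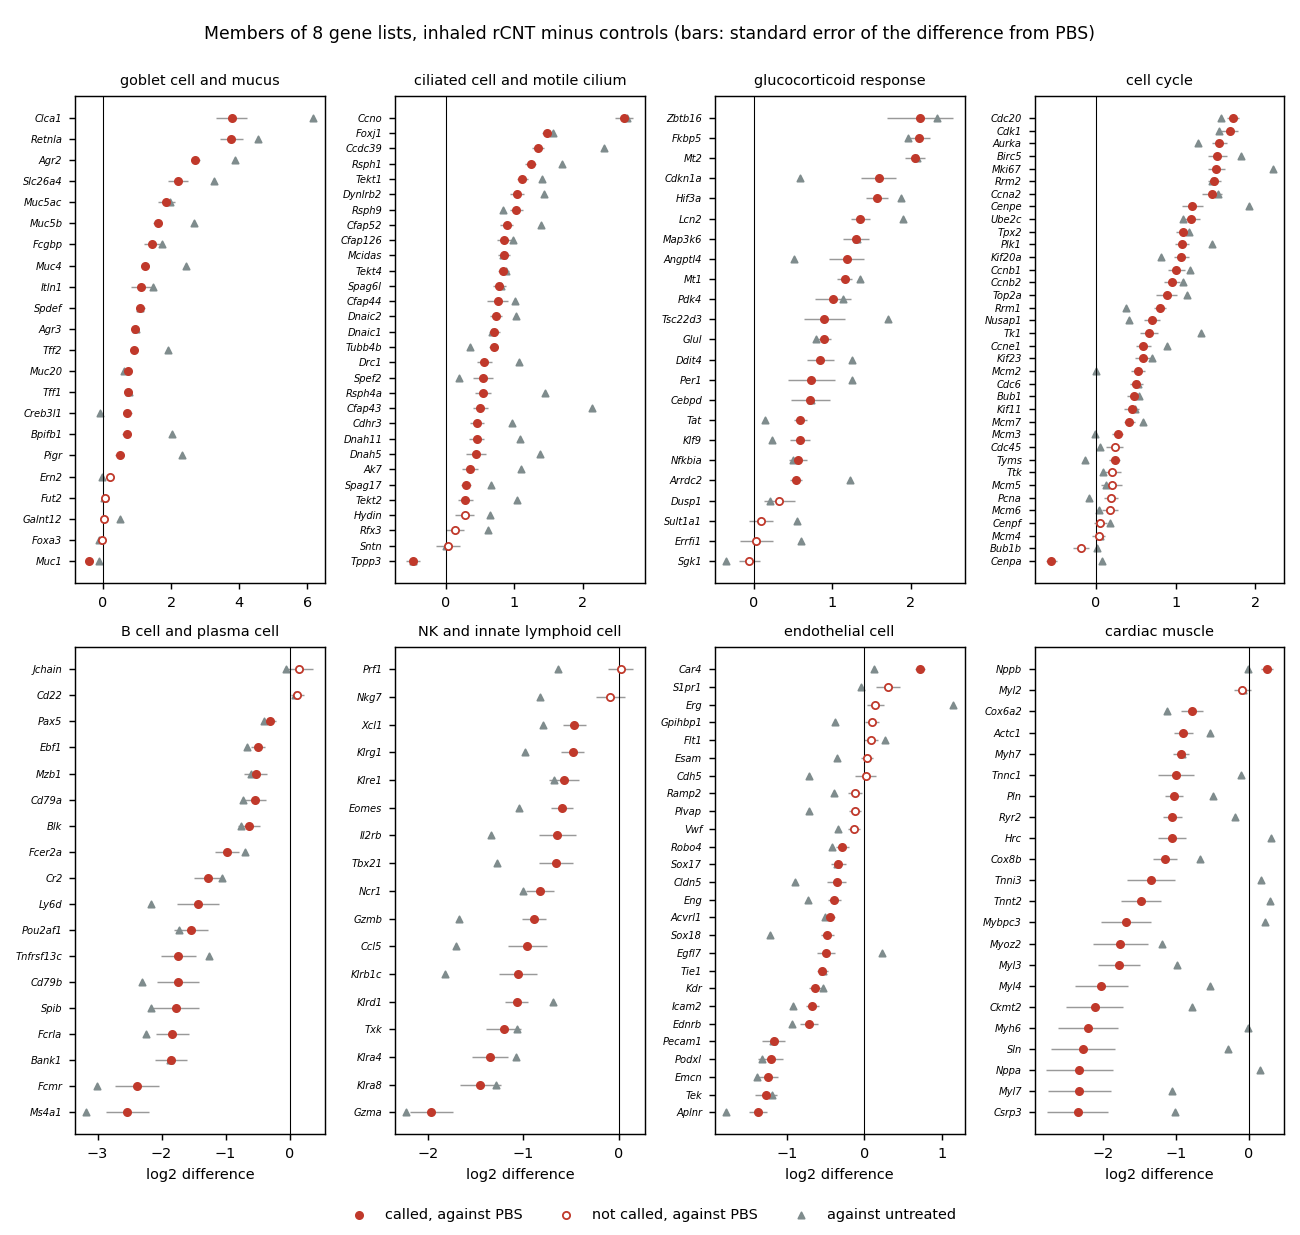
Log2 difference of measured members of 8 gene lists, inhaled minus PBS as circles (filled where the adjusted p was below 0.05) with the standard error as a bar, and inhaled minus untreated as triangles. Of the cilium list 26 of 30 members rose. Not every member of the B cell list is drawn. The cardiac list lies far below 0 against PBS and nearer 0 against untreated samples.

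Ccl17, a chemokine for type 2 helper T cells made by dendritic cells and macrophages, read 12.20, 12.26 and 12.58 in inhaled replicates 1 to 3 and 9.91, 9.94, 9.74 and 9.98 in PBS replicates 1 to 4, with no overlap, and rose by 2.45 (SE 0.16, adjusted p = 2.13e-08). The list of alternative macrophage activation, which holds Ccl17 and Retnla, did not move as a whole: 8 of its 20 measured members rose, 3 fell and 9 did not pass, with a median of 0.11 that became -0.14 with median centring. Chil3, a chitinase-like protein of alveolar macrophages, read 17.15, 17.09 and 16.93 in inhaled replicates 1 to 3 and 16.07, 16.28, 16.28 and 16.20 in PBS replicates 1 to 4 and rose by 0.85 (SE 0.097, adjusted p = 3.62e-06). Chil4, its relative of airway epithelium, rose by 0.82 (adjusted p = 0.0114), but this call was lost without inhaled replicate 2 (0.54, adjusted p = 0.112) and with median centring (0.30, adjusted p = 0.297). The probes of such close relatives may read each other's RNA. Arg1, the arginase of alternatively activated macrophages, read 6.94, 6.61 and 6.98 in inhaled replicates 1 to 3 and 7.21, 7.53, 7.78 and 7.72 in PBS replicates 1 to 4 and fell by 0.71 (SE 0.13, adjusted p = 0.000295). Mrc1, the mannose receptor of these cells, rose by 0.42 (adjusted p = 0.00117), and Cd163 did not pass (-0.16).

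Among cytokines and receptors of type 2 immunity, 5 of 16 members rose and 5 fell, near the shares of 27.5% and 27.7% over all genes. Areg, an epidermal growth factor receptor ligand, read 9.86, 9.47 and 9.38 in inhaled replicates 1 to 3 and 7.88, 7.79, 7.77 and 7.57 in PBS replicates 1 to 4 and rose by 1.84 (SE 0.19, adjusted p = 1.17e-06). Il33, an alarmin of alveolar epithelium, read 13.00, 13.63 and 12.87 in inhaled replicates 1 to 3 and 11.73, 12.08, 11.89 and 12.34 in PBS replicates 1 to 4 and rose by 1.2 (SE 0.16, adjusted p = 1.35e-05). The cytokines themselves were dim: Il13 and Il5 stood at 0.13 and 0.0046 and did not pass, and Il4 was well above background in no inhaled sample. Gata3, the master factor of type 2 lymphocytes, fell by 0.87 (adjusted p = 2.44e-05), and Stat6 itself by 0.45 (adjusted p = 0.00019). Il13ra2, a decoy receptor for interleukin-13, rose by 0.31 (adjusted p = 0.0297), and this call was lost in several alternative analyses, among them those without PBS replicates 1, 3 and 4 and without inhaled replicate 3 (adjusted p of 0.0555 to 0.147).

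Promoter sequence from RefSeq was examined for the genes with the largest rises, of which 8 had an entry in the table used (assembly GRCm38.p6). The motif that STAT6 prefers, TTC and GAA around 4 free bases, was chosen after the values were seen and reads the same on both strands. It lay in the 250 bases before the start of 2 of the 8, Retnla and Ccl17, and in 6.76% of 27025 genes. On the goblet list 1 of 14 promoters held it, that of Retnla again. On the cilium list 3 of 29 did, on the glucocorticoid list 3 of 20, and among the largest falls 0 of 9. The promoters of Retnla and Ccl17 are shown because these are the leading type 2 genes of the comparison, and the motif is in capitals. The one of Retnla is chr16:48842359-48842608 on the plus strand, with the motif at position -145 from the start, and that of Ccl17 is chr8:94810203-94810452 on the plus strand, with the motif at -154.
Retnla: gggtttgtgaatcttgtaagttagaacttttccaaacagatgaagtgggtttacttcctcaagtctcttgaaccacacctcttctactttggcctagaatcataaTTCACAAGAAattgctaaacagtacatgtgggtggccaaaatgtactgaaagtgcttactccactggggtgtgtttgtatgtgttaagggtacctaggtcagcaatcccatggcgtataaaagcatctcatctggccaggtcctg
Ccl17: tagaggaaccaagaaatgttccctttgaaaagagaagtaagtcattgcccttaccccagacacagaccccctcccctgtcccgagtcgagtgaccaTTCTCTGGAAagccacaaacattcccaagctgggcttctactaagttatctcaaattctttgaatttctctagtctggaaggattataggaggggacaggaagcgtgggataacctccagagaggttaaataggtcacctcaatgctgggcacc
A match describes these letters and is not a site shown to bind.

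Acute-phase genes rose almost as a body. Of the 22 measured members 20 rose and 2 fell, with a median of 0.74, and with median centring 15 rose and the median was 0.45. Saa1, a serum amyloid A protein of the acute phase, read 11.32, 11.80 and 11.87 in inhaled replicates 1 to 3 and 8.99, 9.05, 8.84 and 9.13 in PBS replicates 1 to 4 and rose 6.32-fold (adjusted p = 3.23e-08). Saa3, the form made in tissues by macrophages and epithelium, read 11.88, 12.08 and 12.60 in inhaled replicates 1 to 3 and 9.82, 9.75, 9.78 and 10.10 in PBS replicates 1 to 4 and rose 4.94-fold (adjusted p = 3.22e-07). The groups were apart for both. Lcn2, an iron-binding protein that deprives bacteria of siderophores, rose by 1.36, the haptoglobin gene Hp by 0.87 and Il6, the cytokine that induces many of these proteins, by 0.81. Stat3, which carries that signal, rose by 0.85 on its brightest probe (adjusted p = 7.49e-08), whereas a second probe stood at 0.045 (unadjusted p = 0.501). Il1rn and Lbp, an interleukin-1 antagonist and a binder of lipopolysaccharide, fell by 0.43 and 0.40. Timp1, an inhibitor of matrix proteases that is also induced in the acute phase, rose by 0.60 (adjusted p = 0.00097), a call lost with median centring (0.074, adjusted p = 0.686).

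Chemokines for monocytes and neutrophils rose in part. Of 16 CC chemokines 9 rose and 1 fell. Ccl9, a chemokine for monocytes, read 11.84, 11.96 and 11.83 in inhaled replicates 1 to 3 and 9.86, 10.17, 9.96 and 10.13 in PBS replicates 1 to 4 and rose by 1.88 (SE 0.095, adjusted p = 3.46e-09). Ccl2, the main monocyte chemokine, read 9.5, 9.88 and 9.64 in inhaled replicates 1 to 3 and 8.35, 8.68, 8.47 and 9.15 in PBS replicates 1 to 4 and rose by 1.05 (SE 0.16, adjusted p = 3.94e-05), and Ccl7, Ccl8 and Ccl12 rose by 1.44, 1.29 and 1.09. The member that fell was Ccl5, a chemokine of T and NK cells, by 0.96 (adjusted p = 0.00091). Of 14 CXC chemokines 5 rose and 2 fell, against 27.5% and 27.7% of all genes. Cxcl1, a neutrophil chemokine, read 8.40, 9.74 and 8.69 in inhaled replicates 1 to 3 and 7.17, 7.13, 7.37 and 7.41 in PBS replicates 1 to 4 and rose by 1.70 (SE 0.25, adjusted p = 3.41e-05), with inhaled replicate 2 about a log2 unit above the other inhaled samples. Cxcl5, another neutrophil chemokine, followed the same order with 7.66, 9.02 and 8.01 against 6.27, 6.43, 6.17 and 7.21 and rose by 1.75 (adjusted p = 0.00238), a call not made when replicate 1 stood alone for the inhaled group (1.16, adjusted p = 0.152). Cxcl17, a mucosal chemokine, rose by 1.33 and the interferon-induced Cxcl10 by 1.18, while Cxcl12, which holds leukocytes and progenitors in tissue, fell by 1.24 (adjusted p = 1.27e-06).

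Of 20 monocyte and recruited macrophage genes 8 rose and 7 fell, against 27.5% and 27.7% of all genes. Their median of 0.20 turned to -0.30 with median centring. Cd14, the coreceptor for lipopolysaccharide, rose by 1.16 (adjusted p = 1.46e-07) and Ctsk, a collagen-degrading protease, by 1.32 (adjusted p = 1.63e-08). Spp1, an adhesive phosphoprotein of scar-associated macrophages, rose by 0.83 (adjusted p = 0.000883), which was lost with median centring (0.33, adjusted p = 0.105). Mmp12, the macrophage elastase, was well above background in no PBS sample and read 6.91, 7.02 and 7.07 in the inhaled samples. It was at least 1.57-fold higher (adjusted p = 0.000306), and its second probe differed by 0.21. Lyz2, the lysozyme of macrophages and type 2 cells, read 13.77, 14.28 and 14.04 in inhaled replicates 1 to 3 and 15.45, 15.35, 15.88 and 15.83 in PBS replicates 1 to 4 and fell by 1.59 (SE 0.15, adjusted p = 4.05e-07). Plac8, a gene of inflammatory monocytes, fell by 1.23, Cx3cr1, the fractalkine receptor, by 0.55, Csf1r, the growth factor receptor of macrophages, by 0.43 and Adgre1, a macrophage surface receptor gene, by 0.42. Casp1 and Il18, the protease of the inflammasome and a cytokine it cleaves, fell by 0.96 and 1.0, while Il1b and Nlrp3 did not pass (0.37 and 0.085). Of 33 interferon response genes 2 rose and 14 fell, with a median of -0.17.

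Genes that glucocorticoids induce were higher in the inhaled samples. On that list, 19 of its 23 measured members rose, 0 fell and 4 did not pass, the median was 0.89, and with median centring 11 rose, 2 fell and the median was 0.38. Fkbp5, a chaperone of the glucocorticoid receptor, read 12.71, 12.55 and 12.74 in inhaled replicates 1 to 3 and 10.46, 10.38, 10.69 and 10.64 in PBS replicates 1 to 4 and rose 4.32-fold (adjusted p = 2.5e-08). Zbtb16, a zinc finger factor, read 13.53, 13.52 and 13.77 in inhaled replicates 1 to 3 and 11.03, 10.45, 12.14 and 12.31 in PBS replicates 1 to 4, with PBS samples far apart from each other, and rose by 2.12 (SE 0.42, adjusted p = 0.0006). Mt2, a metallothionein that binds zinc and is induced by metals and by glucocorticoids, read 14.23, 14.89 and 14.42 in inhaled replicates 1 to 3 and 12.60, 12.46, 12.58 and 12.29 in PBS replicates 1 to 4 and rose by 2.06 (SE 0.12, adjusted p = 1.34e-08), and Mt1 rose by 1.16. Tsc22d3, the glucocorticoid-induced leucine zipper, rose by 0.90 (adjusted p = 0.00956). The list also holds Cdkn1a, a cell cycle inhibitor that p53 induces too, which rose by 1.59, and Pdk4, a brake on glucose oxidation, which rose by 1.01.

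Sgk1, a kinase that is a classical target of the receptor, did not pass (-0.056, adjusted p = 0.749). It was the 1 member, of 20 with a promoter in the table, that held the full receptor element, AGAACA and TGTTCT around 3 free bases, which 3 of all 27025 promoters hold. Its promoter is shown for this contrast, chr10:21993640-21993889 on the plus strand of chromosome 10, with the element in capitals at position -189.
Sgk1: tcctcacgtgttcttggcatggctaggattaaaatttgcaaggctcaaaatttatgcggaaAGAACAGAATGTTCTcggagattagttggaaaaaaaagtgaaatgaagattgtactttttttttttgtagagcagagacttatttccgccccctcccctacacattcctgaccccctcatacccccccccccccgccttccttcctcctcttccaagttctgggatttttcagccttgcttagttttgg
The element reads the same on both strands, and absence of these letters from the other windows says nothing of sites elsewhere.

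Clock genes, which swing over the day, showed no common shift. Of 19 members 6 rose and 1 fell, against 27.5% and 27.7% of all genes. Their median was 0.092, and -0.31 with median centring. Ciart, a repressor of the clock, read 9.40, 9.15 and 9.49 in inhaled replicates 1 to 3 and 8.40, 8.07, 8.62 and 8.18 in PBS replicates 1 to 4 and rose by 1.03 (SE 0.27, adjusted p = 0.00447). Per1, a clock repressor that glucocorticoids also induce, read 14.00, 13.72 and 14.09 in inhaled replicates 1 to 3 and 13.60, 13.07, 13.48 and 12.68 in PBS replicates 1 to 4 and rose by 0.74 (adjusted p = 0.0453). That call was lost in several alternative analyses, among them those without PBS replicate 2 (adjusted p = 0.0871), PBS replicate 4 (0.128), inhaled replicate 1 (0.107), inhaled replicate 3 (0.131) and untreated replicate 1 (0.0536). Dbp and Arntl, an output and a driver of the clock that peak at opposite times, read 13.76, 12.74 and 13.59 against 14.88, 14.32, 15.36 and 13.05 and 7.31, 9.16 and 8.18 against 8.35, 8.52, 7.85 and 9.75. Their groups overlapped, PBS replicate 4 stood apart from the other PBS samples in both, and neither passed (adjusted p = 0.309 and adjusted p = 0.526). With only the inhaled and PBS samples fitted, Dbp passed (-1.25, adjusted p = 0.00229). Nr1d1, a repressor in the second loop of the clock, fell by 1.34 (adjusted p = 0.0124). The hour of day at which lungs were taken is not given in the labels.

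The E-box CACGTG, which reads the same on both strands and through which the clock drives its genes, lay within 250 bases before the start in 5 of 17 clock genes with a promoter in the table and in 6.86% of all genes. On the glucocorticoid list, which shares Per1, 4 of 20 promoters held it. The cilium list had 1 of 29, the goblet list 1 of 14, the largest rises 1 of 8 and the largest falls 0 of 9. Ciart is shown because it held 3, at positions -116, -58 and -44 from its start on the minus strand of chr3:95882229-95882478, marked by capitals.
Ciart: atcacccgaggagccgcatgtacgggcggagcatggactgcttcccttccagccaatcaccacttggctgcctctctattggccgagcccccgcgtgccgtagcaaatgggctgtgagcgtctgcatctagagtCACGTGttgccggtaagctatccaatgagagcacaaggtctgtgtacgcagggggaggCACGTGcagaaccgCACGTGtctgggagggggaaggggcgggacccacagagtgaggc
Per1, Cry1 and Bhlhe41 held 1 each and Tef 2. The D-box TTATGTAA, a second planned motif, lay in 1 of the 17 clock genes and in 0.98% of all genes. Cry1, a clock repressor, rose by 0.47 (adjusted p = 0.00254), and the transcription factors Tef and Bhlhe41 did not pass, at -0.38 and -0.34.

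Genes of dividing cells rose. Of 36 measured cell cycle genes 27 rose and 1 fell, with a median of 0.63, and with median centring 23 rose and the median was 0.43. Cdc20, an activator of the anaphase-promoting complex, read 11.11, 11.28 and 11.31 in inhaled replicates 1 to 3 and 9.54, 9.54, 9.41 and 9.65 in PBS replicates 1 to 4 and rose by 1.72 (SE 0.078, adjusted p = 2.15e-09). Mki67, the marker of cycling cells, read 11.65, 11.35 and 11.63 in inhaled replicates 1 to 3 and 9.93, 9.91, 9.97 and 10.25 in PBS replicates 1 to 4 and rose by 1.51 (SE 0.10, adjusted p = 3.36e-08). Rrm2, which makes deoxynucleotides for replication, rose by 1.49 and Cdk1, the mitotic kinase, by 1.68. Of the 6 subunits of the replicative helicase, Mcm2 rose by 0.53, Mcm7 by 0.42 and Mcm3 by 0.27, and Mcm5, Mcm6 and Mcm4 did not pass, at 0.20, 0.18 and 0.037. Cenpa, the histone of centromeres, was the member that fell, by 0.56. Of 25 histone genes 12 rose and 1 fell, led by H1f5 (1.42, adjusted p = 1.87e-06) and H2ac4 (1.30, adjusted p = 1.88e-06), and the probes of such near-identical genes may read several of them. Knstrn, a protein of the mitotic spindle, was among the largest rises with 14.87, 14.61 and 14.54 in inhaled replicates 1 to 3 and 11.96, 12.98, 11.56 and 12.23 in PBS replicates 1 to 4 and a difference of 2.57 (SE 0.23, adjusted p = 3.68e-07), but its second probe differed by 0.71.

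Stress responses rose in part. Of 18 heat shock genes 13 rose and 2 fell, with a median of 0.64 and of 0.16 with median centring. Hsph1, a partner of HSP70, read 12.81, 12.70 and 12.78 in inhaled replicates 1 to 3 and 10.88, 10.87, 10.98 and 11.44 in PBS replicates 1 to 4 and rose by 1.73 (SE 0.22, adjusted p = 9.04e-06). Hsp90aa1, the inducible HSP90, read 14.80, 14.97 and 14.71 in inhaled replicates 1 to 3 and 13.55, 13.59, 13.41 and 13.92 in PBS replicates 1 to 4 and rose by 1.22 (SE 0.12, adjusted p = 5.13e-07). Cirbp, a cold-induced RNA-binding protein, fell by 1.2 (adjusted p = 9.98e-05). Of 22 genes of endoplasmic reticulum stress 11 rose and 2 fell, with a median of 0.27 that turned to -0.23 with median centring. Sdf2l1, a component of the chaperone complex of that compartment, read 10.14, 10.26 and 10.25 in inhaled replicates 1 to 3 and 8.98, 8.96, 8.94 and 9.21 in PBS replicates 1 to 4 and rose by 1.2 (SE 0.099, adjusted p = 1.49e-07), and Hspa5, its main chaperone, by 1.06. The median of 20 p53 target genes was 0.29 with 11 rises and 3 falls, and -0.24 with median centring. Gdf15, a stress-induced cytokine of that list, read 9.27, 9.68 and 9.69 in inhaled replicates 1 to 3 and 7.96, 8.12, 8.08 and 8.36 in PBS replicates 1 to 4 and rose by 1.47 (SE 0.14, adjusted p = 3.8e-07). Of 23 antioxidant genes 6 rose and 4 fell, no more than the 27.5% and 27.7% of all genes. Gpx2, a glutathione peroxidase of epithelia, rose by 1.15 (adjusted p = 3.7e-07), and Hmox1 and Nqo1 did not pass (0.012 and -0.18). Cat rose by 0.78 on its brightest probe and fell by 0.62 on another, so it has no settled direction.

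Lymphocyte genes were lower in all 3 inhaled samples. On the list of B cell and plasma cell genes, 0 of its 19 measured members rose, 17 fell and 2 did not pass, against 27.7% of all genes falling, and the median was -1.43. Ms4a1, which encodes CD20, read 7.89, 8.67 and 8.24 in inhaled replicates 1 to 3 and 11.12, 10.61, 10.80 and 10.44 in PBS replicates 1 to 4, with no overlap, and fell 5.78-fold (adjusted p = 1.56e-05). Fcmr, the receptor for immunoglobulin M, read 8.15, 9.40 and 8.41 in inhaled replicates 1 to 3 and 11.43, 11.07, 10.93 and 10.66 in PBS replicates 1 to 4, with inhaled replicate 2 above the other inhaled samples, and fell by 2.39 (SE 0.34, adjusted p = 3.25e-05). Bank1, a scaffold of B cell receptor signalling, fell by 1.85. The plasma cell gene Jchain did not pass (0.15), and neither did Cd22 (0.12). The list medians of the inhaled samples were -1.65, -0.95 and -1.52, below the range of -0.30 to 0.32 in PBS samples.

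NK and T cell genes followed. Of 17 NK cell genes 15 fell and none rose, with a median of -0.82. Gzma, a granzyme of cytotoxic cells, read 10.74, 11.42 and 10.87 in inhaled replicates 1 to 3 and 13.04, 13.17, 12.89 and 12.73 in PBS replicates 1 to 4 and fell by 1.96 (SE 0.23, adjusted p = 3.52e-06). Klrd1, which encodes CD94, fell by 1.07 (adjusted p = 3.72e-06), and Prf1 and Nkg7 did not pass (0.016 and -0.093). Of 25 T cell genes 18 fell and 2 rose, with a median of -0.63. Cd8b1, a chain of the CD8 coreceptor, read 6.65, 6.87 and 6.76 in inhaled replicates 1 to 3 and 8.11, 8.06, 8.00 and 7.83 in PBS replicates 1 to 4 and fell by 1.27 (SE 0.14, adjusted p = 2.11e-06). The 2 that rose were Cd4 (1.04, adjusted p = 2.72e-08) and Cd3e (0.44, adjusted p = 0.00865), and Cd3d and Cd3g, partners of Cd3e in the same receptor complex, fell by 1.16 and 0.88. Foxp3, the factor of regulatory T cells, did not pass (-0.10). Class II antigen presentation genes fell in 7 of 13 cases and rose in none, most in H2-Ob (-2.02, adjusted p = 8.69e-07) and H2-Oa (-1.52), which are B cell chaperones of peptide loading, while Cd74 and H2-Ab1 did not pass (-0.16 and -0.20).

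On the neutrophil list 6 of 23 members rose and 8 fell, near the shares of 27.5% and 27.7% over all genes. S100a8 and S100a9, the subunits of calprotectin that neutrophils carry in bulk, showed the largest falls among the genes ranked (called, without overlap, no Gm, LOC or Rik symbol). S100a9 read 10.85, 11.60 and 11.95 in inhaled replicates 1 to 3 and 14.00, 14.00, 13.81 and 14.45 in PBS replicates 1 to 4 and fell by 2.62 (SE 0.28, adjusted p = 1.65e-06), and S100a8 read 8.98, 9.57 and 9.88 in inhaled replicates 1 to 3 and 11.98, 12.09, 11.75 and 12.51 in PBS replicates 1 to 4 and fell by 2.61 (SE 0.28, adjusted p = 1.74e-06). The groups were more than a log2 unit apart in both. Mmp9, a gelatinase of neutrophil granules, was well above background in no inhaled sample and read 7.43, 7.31, 7.38 and 7.79 in the PBS samples, so that it was at least 2.38-fold lower (adjusted p = 9.9e-07). Fpr1, the receptor for formylated peptides, fell by 1.21, and Padi4, which citrullinates histones in neutrophils, by 1.07 (adjusted p = 5.79e-07). A second Padi4 probe differed by only -0.32. Among the list members that rose, Ltf, the iron-binding lactoferrin that airway glands also make, read 13.46, 13.01 and 13.41 in inhaled replicates 1 to 3 and 11.60, 10.81, 11.82 and 10.93 in PBS replicates 1 to 4 and rose by 1.93 (SE 0.13, adjusted p = 2.62e-08), and the integrin gene Itgam by 0.90. Mpo, Csf3r and Retnlg did not pass (0.074, 0.084 and -0.076).

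The eosinophil and alveolar macrophage lists shared Siglecf among their largest falls. Siglecf, a lectin carried by both cell types, read 8.49, 8.59 and 8.29 in inhaled replicates 1 to 3 and 10.40, 10.54, 10.32 and 10.62 in PBS replicates 1 to 4 and fell 3.89-fold (adjusted p = 4.91e-09), and its second probe fell too, by 1.1. Ear2, a ribonuclease of eosinophils and macrophages, read 13.37, 13.46 and 13.47 in inhaled replicates 1 to 3 and 15.38, 15.37, 15.38 and 15.14 in PBS replicates 1 to 4 and fell by 1.90 (SE 0.10, adjusted p = 5.87e-09), and Ear1 and Ear10, whose sequences are close enough for probes to read each other's RNA, fell by 1.98 and 1.68. Of 10 eosinophil genes 7 fell and 1 rose, and Ccr3, the eotaxin receptor, fell by 1.05, while Prg2 and Il5ra did not pass (-0.11 and -0.29). Of 19 alveolar macrophage genes 8 fell and 6 rose, against 27.7% and 27.5% of all genes. Pparg, which maintains these cells, fell by 0.52, Marco and Itgax did not pass (0.13 and 0.24), and Car4, which endothelium shares, rose by 0.72. Alox5 and its partner Alox5ap, which start leukotriene synthesis in myeloid cells, fell by 1.15 (adjusted p = 6.86e-07) and 0.61 (adjusted p = 1.01e-05).

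**Figure D3:**
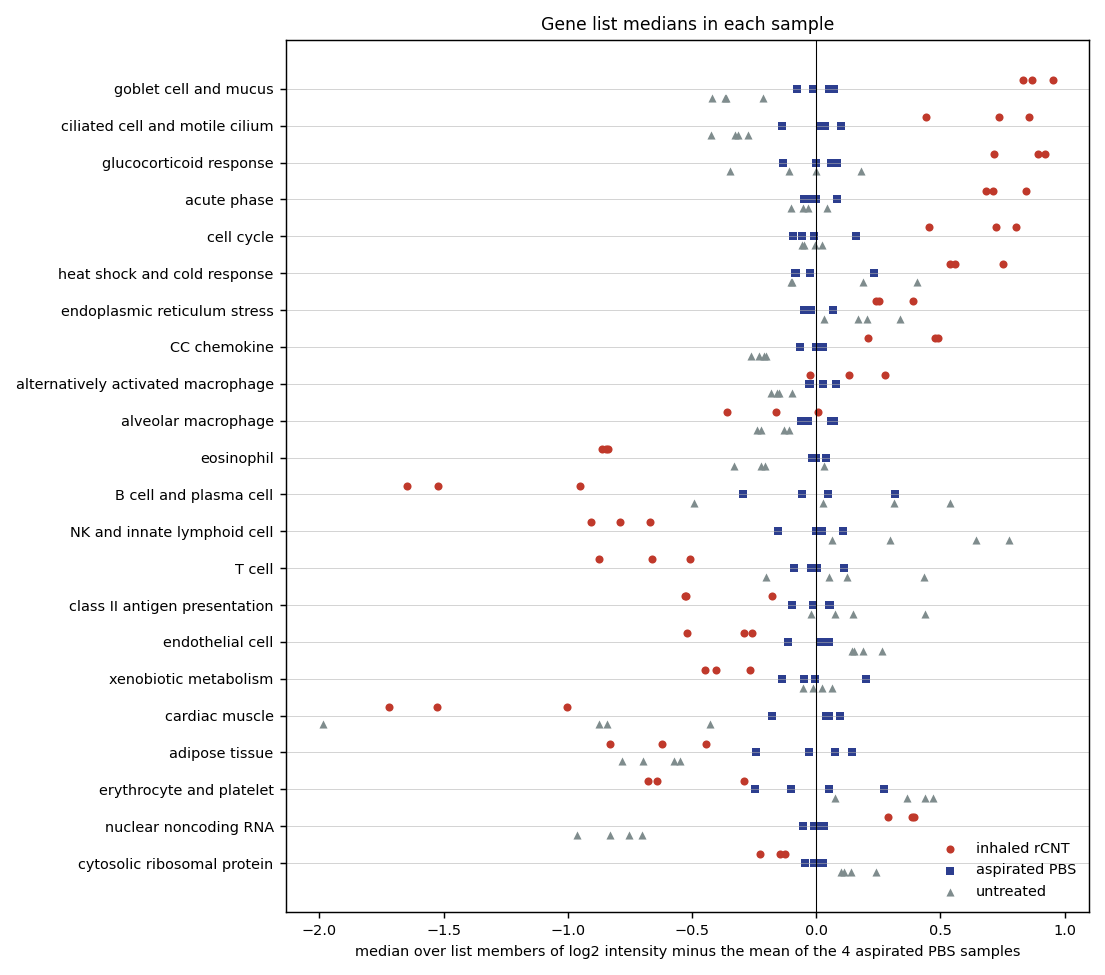
Median over the members of 22 gene lists in each inhaled, PBS and untreated sample, as log2 intensity minus the mean of the 4 PBS samples. The goblet, cilium, glucocorticoid, acute phase and cell cycle lists had all 3 inhaled samples above every PBS sample, and the B cell, NK and T cell lists all 3 below. The cardiac and adipose lists were low in both inhaled and untreated samples.

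Genes of the alveolar wall and of vessels went both ways, with more falls than rises in the endothelial, type 1 and type 2 lists. Over all genes 27.5% rose and 27.7% fell. Of 26 endothelial genes 16 fell and 1 rose, with a median of -0.37. Aplnr, the apelin receptor, read 7.81, 8.01 and 8.04 in inhaled replicates 1 to 3 and 9.37, 9.15, 9.52 and 9.21 in PBS replicates 1 to 4 and fell by 1.38 (SE 0.12, adjusted p = 2.1e-07). Emcn, a mucin-like protein of capillaries, fell by 1.25, Pecam1, a junctional protein of endothelium, by 1.17, and Kdr, the main receptor for vascular endothelial growth factor, by 0.63, while Cdh5 and Vwf did not pass (0.016 and -0.13). Type 2 cell genes had 3 rises and 7 falls among 18. Sftpd, a collectin that type 2 and club cells secrete, rose by 0.64 (adjusted p = 0.00358), Napsa, which cuts surfactant precursors, fell by 0.75 (adjusted p = 1.34e-05), and Abca3, the lipid pump of lamellar bodies, by 0.50. Of 17 type 1 cell genes 2 rose and 7 fell, with Clic5, a chloride channel protein, lower by 0.76 on the log2 scale (adjusted p = 7.5e-05). Fibroblast and matrix genes had 8 rises and 11 falls among 29, with the rises near the share over all genes. Dcn, a proteoglycan that coats collagen fibrils, read 13.64, 13.20 and 13.47 in inhaled replicates 1 to 3 and 14.53, 14.22, 14.63 and 14.32 in PBS replicates 1 to 4 and fell by 1.02 (SE 0.079, adjusted p = 8.33e-08). Col1a1 rose by 0.23 and Col1a2, the other chain of collagen I, fell by 0.29, whereas Thbs1, a matricellular protein, rose by 1.31.

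Of 23 xenobiotic metabolism genes 14 fell and 4 rose, with a median of -0.37. Fabp1 and Cyp26b1, among the 10 largest falls, lay outside that list. Fabp1, a fatty acid binding protein, read 8.28, 8.72 and 8.58 in inhaled replicates 1 to 3 and 11.01, 11.31, 11.09 and 10.92 in PBS replicates 1 to 4, with no overlap, and fell 5.8-fold (adjusted p = 4.13e-09). Cyp26b1, which clears retinoic acid, read 9.62, 9.99 and 10.99 in inhaled replicates 1 to 3 and 13.52, 12.43, 12.22 and 12.82 in PBS replicates 1 to 4 and fell by 2.56 (SE 0.55, adjusted p = 0.00106), with a spread of more than a log2 unit within each group. On the list, Aox3, an aldehyde oxidase, fell by 1.12 and Cyp2e1, a monooxygenase of small organic molecules, by 1.14. Cyp1a1, the target of the aryl hydrocarbon receptor, was 1 of the 10 genes that varied most among inhaled samples, with 8.74, 10.56 and 9.82 against 9.03, 8.45, 8.85 and 9.41. Its rise of 0.81 (adjusted p = 0.0262) was lost without inhaled replicate 2 (0.36), inhaled replicate 3 (0.72) or PBS replicate 2 (0.61), and on the values of slide 2 alone the sign turned (-0.17).

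Muscle, fat and blood genes, which tissue taken along with a lung can carry, were lower in the inhaled samples than in the PBS samples. On the cardiac muscle list, which covers the muscle sleeves of lung veins as well as heart, 20 of 22 members fell and 1 rose, with a median of -1.41. Myh6, the atrial myosin heavy chain, read 12.95, 13.85 and 12.68 in inhaled replicates 1 to 3 and 15.36, 15.44, 15.49 and 15.24 in PBS replicates 1 to 4, and fell by 2.21 (SE 0.41, adjusted p = 0.000309). Nppa, atrial natriuretic peptide, read 7.74, 10.59 and 8.53 in inhaled replicates 1 to 3 and 11.43, 11.47, 11.51 and 10.91 in PBS replicates 1 to 4 and fell by 2.33 (SE 0.46, adjusted p = 0.000522), with inhaled replicate 2 close to the lowest PBS sample and replicate 1 more than 3 log2 units below it. Csrp3 and Myl7, proteins of the heart muscle sarcomere, fell by 2.35 and 2.33. Mb, the myoglobin gene, which the list does not hold, fell by 2.31 (adjusted p = 0.000465). The list medians were -1.53, -1.0 and -1.72 in inhaled samples and -0.18 to 0.097 in PBS samples. Of 14 fat tissue genes 9 fell and 1 rose, with Adipoq, the hormone of fat cells, at 6.83, 7.12 and 6.31 against 8.37, 8.63, 8.48 and 8.14. Of 16 red cell and platelet genes 10 fell and none rose, with Hba-a1, a globin, at 15.07, 16.11 and 15.31 against 16.70, 17.18, 17.04 and 16.67, in which close globin copies may be read together. The part of carried tissue and of blood in the falls of leukocyte and endothelial genes was not tested.

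Untreated lungs, which shared slides with the inhaled samples, gave a second yardstick, and because both differences use the same inhaled samples they are only set side by side. Relative to untreated samples 7166 genes (28.4%) rose and 8197 (32.5%) fell. The goblet list had a median of 1.60 against untreated and 0.91 against PBS, the cilium list 1.02 and 0.70, the glucocorticoid list 1.14 and 0.89, and the B cell list -1.05 and -1.43. Within slides, inhaled replicate 1 was set against the 3 untreated samples of slide 2 and inhaled replicates 2 and 3 against the 1 of slide 3. No dye effect was removed from these differences, although the dyes were not matched within a slide. All 10 genes with the largest rises over PBS were higher on both slides, with Clca1 differing by 6.24 and 6.95 and Foxn4 by 3.18 and 3.22. Of the 10 largest falls 9 were lower on both, with S100a9 at -3.09 and -2.77, and Nppa differed in sign, at -1.32 and 1.29. These genes were picked for their values in the same inhaled samples, so their counts are no independent check of the differences from PBS. The share of all genes with the same direction on both slides was not counted.

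Several genes stood differently against each kind of control. Cardiac genes had a list median of -0.40 against untreated samples, and Myh6 and Tnnt2, a troponin of heart muscle, differed by -0.015 (adjusted p = 0.978) and 0.29 (adjusted p = 0.388) from them. Myh6 read 14.15, 13.55, 11.84 and 13.18 in untreated replicates 1 to 4, all of them below every PBS sample. The fat list had a median of -0.17 against untreated samples, with 4 members higher and 6 lower. On that list PBS samples stood above untreated samples by a median of 0.70. The red cell and platelet list had a median of -0.79 against untreated samples and -0.50 against PBS. Serpinh1, a collagen chaperone, rose by 0.85 over PBS (adjusted p = 2.62e-06; lost with median centring, 0.35, adjusted p = 0.0548) and stood at -0.29 against untreated samples (adjusted p = 0.0157). Manf, a secreted protein of endoplasmic reticulum stress, rose by 1.02 over PBS and stood at 0.024 against untreated samples (adjusted p = 0.863).

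Of 13 nuclear noncoding RNAs 6 rose and 1 fell against PBS, and 10 rose and none fell against untreated samples. Neat1, the scaffold RNA of paraspeckles, read 15.98, 15.29 and 15.69 in inhaled replicates 1 to 3 and 15.87, 15.44, 15.94 and 15.38 in PBS replicates 1 to 4, with groups overlapping and a difference of -0.056 (adjusted p = 0.73). With median centring that difference passed, at -0.41 (adjusted p = 0.0375). In the untreated samples Neat1 read 11.91, 11.44, 11.57 and 11.32, a difference of 4.04 (adjusted p = 3.28e-12). Malat1, a nuclear RNA of speckles, did not pass against PBS (0.31) and differed by 2.49 from untreated samples. Rnu2-10, a copy of the U2 spliceosomal RNA, rose by 1.81 over PBS (adjusted p = 1.83e-08) and by 4.14 over untreated samples, and its near-identical copies cannot be separated by a probe. Other members differed less between the controls: Rnu12, a minor spliceosomal RNA, stood at 0.68 against PBS and 0.93 against untreated samples, and H19 at -0.024 and -0.23. The inhaled and untreated samples lay on the same slides. Ribosomal protein genes stood the other way, with 25 of 48 lower and 3 higher than PBS and medians of -0.16 and -0.30 against PBS and untreated samples. Alb, the liver gene, read 10.35 in untreated replicate 1 and 6.40 to 6.74 in the other untreated samples, and it was well above background in no inhaled sample.

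**Figure D4:**
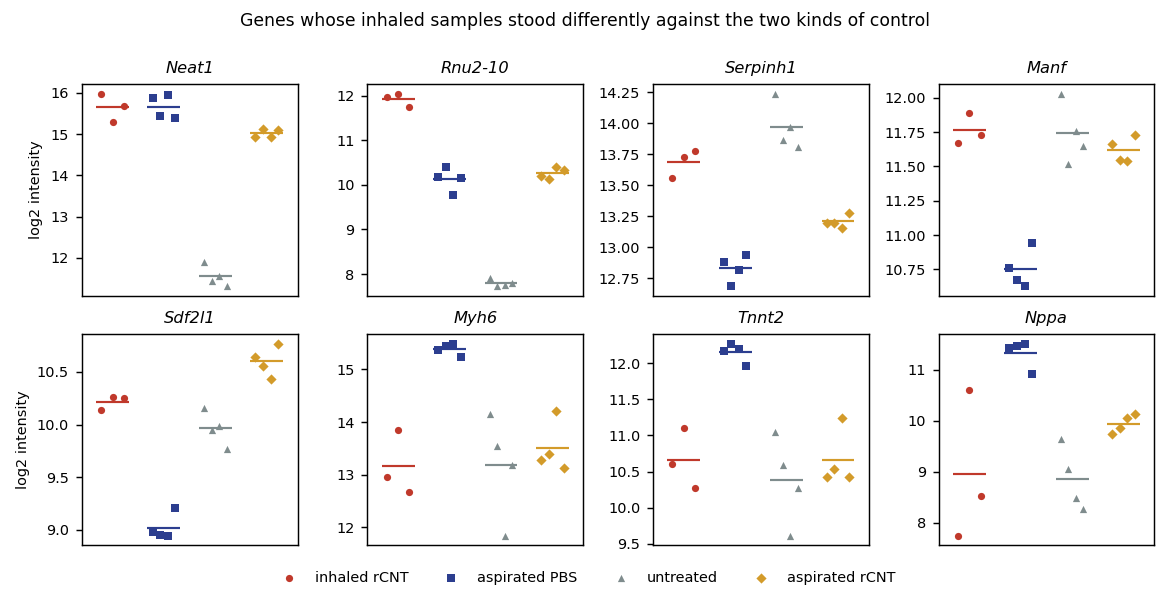
Log2 intensity in each sample of 8 genes whose inhaled samples stood differently against PBS and against untreated samples, chosen after their values were seen. Points are samples and lines group means. Neat1 differed by -0.056 from PBS and by 4.04 from untreated samples, and Myh6 by -2.21 and -0.015.

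The 10 genes that varied most among the 3 inhaled samples after the dye effect was removed were Nppa, Uhmk1, Mb, Cyp1a1, Ly6k, Spon2, Srd5a3, Sln, Retnla and Fcmr, with the values of Retnla capped in replicates 1 and 3. Nppa, Mb and Sln, a regulator of the calcium pump of atrial muscle, are expressed in heart muscle, and Sln read 9.96, 11.27 and 9.86 in inhaled replicates 1 to 3 and 12.60, 12.81, 12.74 and 12.45 in PBS replicates 1 to 4. Spon2, an extracellular matrix protein, read 8.71, 10.44 and 10.07 in inhaled replicates 1 to 3 and 9.93, 10.65, 9.49 and 11.76 in PBS replicates 1 to 4 and did not pass (adjusted p = 0.253), but did with median centring (-1.09, adjusted p = 0.0346). Uhmk1, a kinase, read 7.17, 8.82 and 6.96 and stood alone in replicate 2, and Ly6k, of the Ly6 family, read 7.06, 6.86 and 8.36 and stood alone in replicate 3. Neither passed (adjusted p = 0.707 and adjusted p = 0.435), and Ly6k did with array weights (0.72, adjusted p = 0.0293). Over all genes the median standard deviation was 0.11 in both the inhaled and the PBS samples.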

How the data were processed

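Each of the 15 samples is 1 channel of a 2-colour Agilent array (14 arrays, 3 slides). Per the file headers, the authors extracted spot intensity values with Agilent Feature Extraction 11.0.1.1, on a design built for mm9. The deposited intensity values used were the median spot and local background signals of the sample's own dye. The deposited series table, taken as log2, correlated at 0.998 to 1.00 with those values and served as an alternative; how the authors corrected and centred it is not given in the sources used here. The 62976 spots of each array were corrected with normexp (offset 50) and quantile-normalised on the log2 scale, and control spots and outlier-flagged spots (106 to 154 per sample) were left out. No spot was saturated. Precision is limited by the number of arrays. Of 55681 probes 34271 were kept, those that the scanner software marked as above background in 3 or more samples of a group, and the brightest probe stood for a gene. Symbols came from RefSeq (GRCm38.p6) through accessions. Of all probes 29123 had such an accession and 27656 a symbol, and 15840 of the 25250 genes or transcripts tested had one.

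All samples entered 1 limma model (version 3.58.1, R 4.3.3, lmFit and eBayes, two-sided) with 4 groups and a dye term, with Benjamini-Hochberg adjustment over all genes tested. The model was also run on simulated data with independent noise and no slide effect, a run that says nothing of differences between slides. Python 3.11.15 drew the figures. For a probe below that mark in every sample of a group, the fold is a bound against the higher of its own signal and the lowest signal well above background. These bounds leave out the dye term, which the p-values include. Named were the 10 largest rises and falls among genes called without overlap, 2 members of each list, genes fixed by name, and the 10 most variable among inhaled samples. The rankings of rises, falls and spread left out genes without a symbol and symbols of the Gm, LOC or Rik kind. Other list members were named after their values were seen, as examples or because they went against their list. The members and lists were chosen with earlier results of these data known. Some results are not reported here. Alternatives varied the signal, background correction, normalisation, filters, probe summary, samples fitted, dye, slide and replicate terms, variance model and each replicate.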

Additional observations from a re-analysis of the deposited data

Results flagged for a closer look

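In 10 of 204 sets of 4 values examined within a group, 1 sample lay far from the other 3 of its group, and chance alone gives about 1 in 20. PBS replicate 2 was the highest for C1qc (10.61, others 10.43 to 10.46), C7 (9.07, others 8.71 to 8.75) and Pon1 (10.96, others 10.82 to 10.83). PBS replicate 4 was the lowest for Ear2 (15.14, others 15.37 to 15.38), Mb (10.7, others 11.27 to 11.38) and Nppa (10.91, others 11.43 to 11.51), and the highest for Sdf2l1 (9.21, others 8.94 to 8.98). PBS replicate 1 was the highest for Ifih1 (10.88, others 10.73 to 10.75). Among list medians, PBS replicate 3 was the highest for classically activated macrophages (0.067, others -0.032 to -0.019) and PBS replicate 4 for the liver list (0.037, others -0.058 to -0.052).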

How the results depend on the processing

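No slide held both groups. Counts of genes called stayed within 1.5 times of 13937 in every alternative except the test for more than a 2-fold change (limma treat at a log2 change of 1), which called 185 genes, 168 higher and 17 lower. Median centring gave 3499 higher and 13111 lower genes, with 207 and 1376 at least 2-fold. The processed signal gave 1541 and 1202 at least 2-fold higher and lower genes, and inhaled replicate 1 alone (slide 2) 476 at least 2-fold lower. Leaving out each inhaled or PBS replicate gave 12252 to 13619 genes called, 6137 to 6745 higher, 6115 to 6874 lower, 601 to 740 at least 2-fold higher and 259 to 387 at least 2-fold lower. Median centring turned the sign of Apoa2 (-0.059), Gata2 (-0.062), Jund (-0.092), Krt18 (-0.12) and Trp63 (-0.16), slide 2 alone that of Cyp1a1 (-0.17) and the mean over probes that of Nfkbib (-0.020). The causes were not tested. With slide as a random block 12578 genes were called (correlation within slides 0.108). Since the groups lay on different slides, this block cannot separate a slide difference from the difference between the groups. Deviations of same-numbered inhaled and PBS samples from the fit correlated at r = -0.172, -0.355 and -0.1. Those of differently numbered samples correlated at -0.135 to 0.263. The deviations are what is left after group means and dye are fitted, so they cannot decide whether equal numbers mark pairs. With the replicate block 13111 genes were called and 145 of 146 named genes kept their call.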

Other observations

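Genes outside the lists, chosen after their values were seen, extended 3 of the groups described. Deup1, which builds the deuterosomes on which multiciliated cells copy centrioles, differed by 2.29 between inhaled and PBS samples (limma adjusted p = 4.91e-09). Gmnc, which starts the multiciliation programme, differed by 1.26, Myb, which acts early in it, by 1.31, and Cdc20b, which lies beside the miR-449 genes of these cells, by 1.31. Ccdc103 and Ccdc151, which dock dynein arms on the axoneme, differed by 1.32 and 1.53. Ccna1, a cyclin, differed by 2.25.

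Of mucus genes, Dmbt1, a scavenger protein of mucosal secretions, differed by 2.18 (adjusted p = 8.25e-08), St6galnac1, which adds sialic acid to mucins, by 1.67, and Galnt7, which starts or extends their sugar chains, by 1.55. Of leukocyte genes, Cxcr5, which guides B cells to follicles, differed by -1.80 (adjusted p = 2.56e-05), Ltb, a lymphotoxin subunit, by -1.45 and Ptprc, the common leukocyte antigen CD45, by -1.45. In each of these genes the inhaled and PBS samples did not overlap, as in 50.9% of all genes tested.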
